A study of Mus musculus with 8 samples.

Results

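The carboxylesterase genes described here are Ces1d, Ces1e, Ces1f, Ces1g, Ces2a, Ces2c, Ces2e, Ces3a and Ces3b, 9 genes read on Affymetrix mouse genome arrays in livers that carried rAd.A20 or rAd.βgal. Each was taken with all probe sets that the array annotation assigned to it, which gave 9 of the 45101 probe sets of the array. The set was chosen because Ces1e was lower after resection in A20 livers, and the other members were taken as its relatives. Of the 9 genes, 6 had a probe set of their own and were among the 17790 genes tested. Ces3a and Ces3b shared 1 probe set and have no separate values, and Ces2c had no probe set named in the annotation used here. All 9 probe sets passed the filter on low values, which asked for a group mean of 40 or more in 1 of the groups or in several.

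The 4 groups held 2 arrays each, and each array carried pooled liver RNA of 3 BALB/c mice, 8 weeks of age. All mice had received a recombinant adenovirus 5 days before resection, rAd.A20 with human A20, an inhibitor of NF-κB signalling, or the control rAd.βgal with β-galactosidase. Post-A20 and post-βgal arrays hold the remnant liver 24 h after a 78% resection, and pre-A20 and pre-βgal arrays hold the lobes removed at resection in A20 and βgal livers. Resected livers were thus also sampled 24 h later after the vector. The vector reaches 30 to 40% of the hepatocytes, so each pool mixes transduced and other cells, and no group was without a virus. In the records, the post-A20 samples carry a treatment text worded for βgal, but A20 is what their title, source and description state, and this was followed.

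Carboxylesterases are serine hydrolases of the endoplasmic reticulum that cleave esters, amides and acylglycerols. In the liver they turn ester drugs and environmental esters into acids and alcohols, and several of them release fatty acids from stored triacylglycerol, which the hepatocyte uses for the assembly of very low density lipoprotein or burns. Mice have many more of these genes than humans, a result of repeated duplication. In the RefSeq annotation (GRCm38.p6), Ces1a to Ces1h and Ces5a follow each other on chromosome 8 with no other coding gene between them, and the Ces2, Ces3 and Ces4a genes form another uninterrupted run on the same chromosome, after 68 other coding genes. Close copies can be read by the same probes, and how far one gene's signal holds another's was not tested.

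The start regions of 3 members are printed because the results turn on them: Ces1e, on which the set was chosen, Ces1g, the member called with resection in βgal livers, and Ces2a, the member with the pattern most like that of Ces1e. RefSeq start regions, 250 bases before to 50 bases after the gene's start, were at hand for 6 of the 9 members. The capitals mark matches to any of 7 motifs, and the order is 5′ to 3′ on the gene's own strand in GRCm38.p6. Ces1e lies at chr8:93229570-93229869 on the minus strand, Ces1g at chr8:93337160-93337459 on the minus strand and Ces2a at chr8:104733753-104734052 on the plus strand.
Ces1e: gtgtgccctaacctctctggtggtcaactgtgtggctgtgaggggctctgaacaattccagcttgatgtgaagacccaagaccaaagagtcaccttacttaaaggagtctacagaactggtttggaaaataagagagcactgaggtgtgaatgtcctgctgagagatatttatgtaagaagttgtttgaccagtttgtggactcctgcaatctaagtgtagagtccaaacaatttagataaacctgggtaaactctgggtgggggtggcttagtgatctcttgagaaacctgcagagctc
Ces1g: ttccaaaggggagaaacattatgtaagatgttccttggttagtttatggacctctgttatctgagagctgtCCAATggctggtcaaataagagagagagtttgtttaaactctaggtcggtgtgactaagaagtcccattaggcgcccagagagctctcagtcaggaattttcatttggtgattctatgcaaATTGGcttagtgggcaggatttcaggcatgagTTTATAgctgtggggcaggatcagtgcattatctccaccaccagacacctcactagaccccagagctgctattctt
Ces2a: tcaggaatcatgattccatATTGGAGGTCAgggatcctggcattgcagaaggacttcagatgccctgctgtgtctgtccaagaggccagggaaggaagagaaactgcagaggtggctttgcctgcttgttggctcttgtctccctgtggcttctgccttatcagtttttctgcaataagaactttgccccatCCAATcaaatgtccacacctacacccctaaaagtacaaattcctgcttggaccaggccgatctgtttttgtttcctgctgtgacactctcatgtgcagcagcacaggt

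The motifs were searched on both strands. The TATA box (TATAAA) was found in 13.6% of all 32544 start regions of this length, the CCAAT box (its letters are its name) in 37.4%, a core motif of nuclear receptors (AGGTCA) in 16.2%, the HNF4A motif (CAAAGTCCA) in 0.479%, the FOXA motif (TGTTTAC) in 3.66%, the C/EBP motif (TTGCGCAA) in 0.184% and the NF-κB motif (GGGANNNNCC) in 20.8%. The Ces1e region held none of these motifs. The Ces1g region held the TATA box on the reverse strand, 26 to 21 bases before the start, and CCAAT 179 to 175 bases before it and, on the reverse strand, 58 to 54 bases before it. Ces2a had CCAAT at the same place, 58 to 54 bases before the start, and a reverse-strand CCAAT 231 to 227 bases before it that was followed directly, without overlap, by the nuclear receptor core. Across the 6 regions, the CCAAT box matched in 4, the TATA box in 2, and the nuclear receptor core and the NF-κB motif in 1 each. Ces1e and Ces1g, which lie in the same gene run with Ces1f between them, were 47.0% identical in an alignment that counts gaps as differences. Ces1e was at 42.9 to 50.5% with the members of the other run, so its run neighbour was no closer. The closest pair, Ces2a and Ces2c, reached 65.0%. A match is a description of the letters and not of a bound factor.

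All differences below are log2 fold changes of signal plus 16, with their standard error (SE) from 1 limma model of all 8 arrays, and a gene is called at an adjusted p under 0.05 over all genes tested. The array medians lay between 152.6 and 165.8. RNA integrity differed between arrays, with a 3′ to 5′ ratio of the β-actin control probe sets of 3.64 in post-βgal replicate 1 and 7.0 in pre-βgal replicate 1, against 1.27 to 1.62 in the other 6 arrays. Since labels do not say more of the replicates than that they are pools, the p-values measure the spread between pools. In whole liver RNA, fewer cells of a type and less RNA per cell cannot be told apart. Hepatocytes are the main source of these enzymes, and the summed signal of 6 of 6 hepatocyte markers, none of them at 0, was 80723 to 87107 in post-A20, 81190 to 84125 in pre-A20, 75719 to 79238 in post-βgal and 73335 to 77652 in pre-βgal arrays, with none of the 6 called in any comparison. Alb, Apoa1 and Ttr had the highest signals of these 6 in every group, so the sum follows them more than the others. Tat, another of the 6, had means of 7423 in post-A20, 5472 in pre-A20, 6635 in post-βgal and 3219 in pre-βgal arrays. Signals of different probe sets have different scales, so levels of the members are compared between arrays and not between genes.

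Ces1e, known as egasyn, holds β-glucuronidase in the endoplasmic reticulum and also cleaves retinyl esters. Its signal was 344 and 202 in post-A20, 2358 and 2287 in pre-A20, 1137 and 511 in post-βgal, and 2238 and 1325 in pre-βgal livers. The post-A20 arrays lay below all 6 others, and the pre-A20 arrays above all others, the higher pre-βgal array included by a small margin. The mean was 273 ± 100 in post-A20 and 2323 ± 49.6 in pre-A20 livers (SD, n = 2 each), a log2 fold change of −3.06 (SE 0.42) or 8.35-fold lower, given as a description because the set was chosen on it. In βgal livers the corresponding means were 824 ± 442 after and 1782 ± 646 before resection (SD, n = 2 each), a log2 fold change of −1.16 (SE 0.42). That decrease shares no array with the choice of the set and did not pass the test (limma adjusted p = 0.166), although the arrays did not overlap. Replicates of Ces1e were far apart in 3 of the 4 groups, 0.72 on the log2 scale in post-A20, 1.13 in post-βgal and 0.75 in pre-βgal, against 0.04 in pre-A20. Without post-βgal replicate 2, the βgal difference was −0.59, and without post-βgal replicate 1 it was −1.72.

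**Figure D1:**
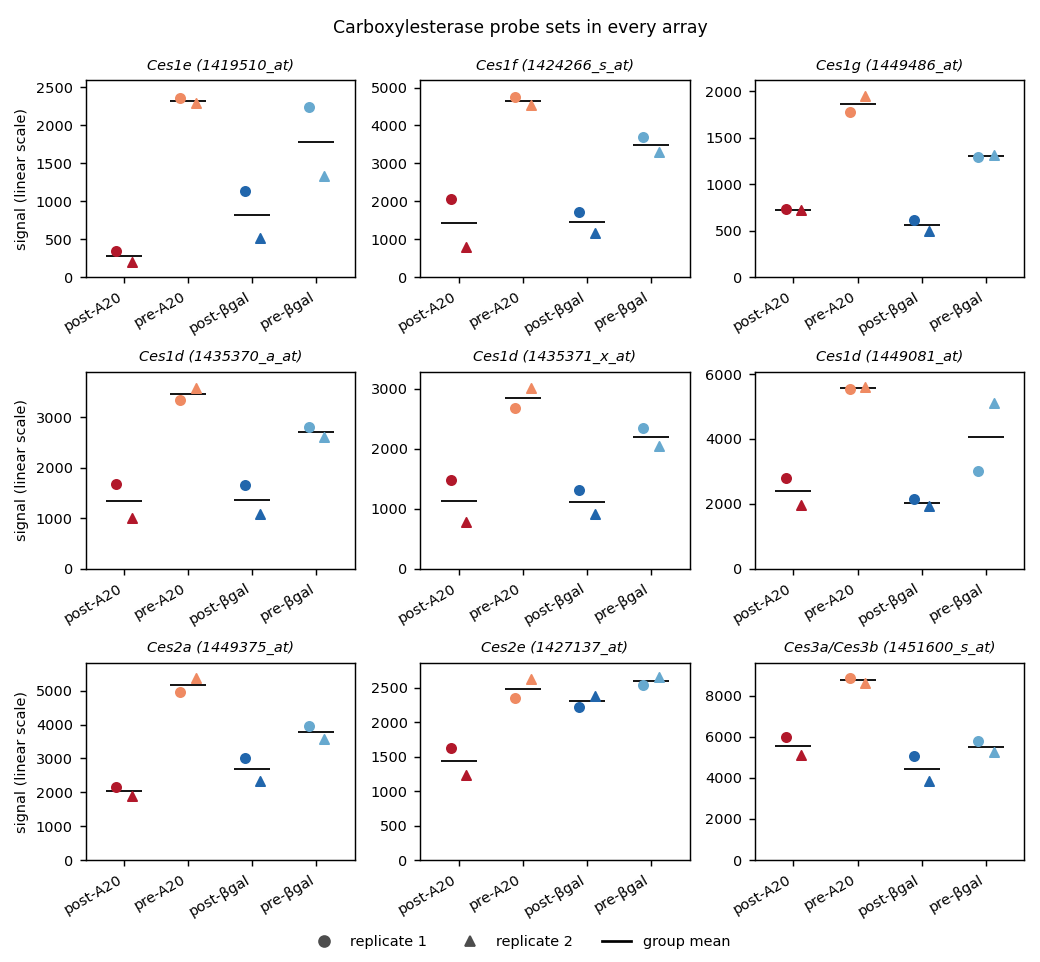
Signal (linear scale, vertical axis) of the 9 carboxylesterase probe sets in every array, with circles for replicate 1, triangles for replicate 2 and a line at the mean of each group of 2. Ces1e in post-A20 livers, at 344 and 202, lies below every other array, and Ces2e likewise at 1620 and 1240, while Ces1f replicates of the post-A20 group spread from 800 to 2060.

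Ces1g, a carboxylesterase of liver that hydrolyses triacylglycerol and acts on blood lipids, fell with resection in βgal livers and was the member called there. Its signal was 618 and 501 in post-βgal and 1289 and 1316 in pre-βgal livers, and the groups did not overlap. The means of 559 ± 82.1 in post-βgal and 1303 ± 18.7 in pre-βgal livers (SD, n = 2 each) gave a log2 fold change of −1.20 (SE 0.16, 95% interval −1.58 to −0.82), 2.30-fold lower after resection, with a limma adjusted p of 0.0189. Across all genes, 0.748% were called lower in this comparison, and 1 of the 6 members tested was. The call was lost without post-A20 replicate 1 (adjusted p = 0.0525), post-A20 replicate 2 (adjusted p = 0.0517), post-βgal replicate 1 (adjusted p = 0.0783) or post-βgal replicate 2 (adjusted p = 0.136), with values from −1.35 to −1.06. It was also lost when only the 4 arrays compared entered the fit (adjusted p = 0.149). In A20 livers the signal of Ces1g was 731 and 717 after and 1773 and 1943 before resection, a log2 fold change of −1.34 that is a description here. Both A20 groups lay above the βgal group of the same time, by 0.37 after (adjusted p = 0.263) and 0.51 before resection (adjusted p = 0.136), and averaged over both by 0.44 (SE 0.12, adjusted p = 0.0682).

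Ces1f, a triacylglycerol hydrolase close to Ces1d in sequence, showed 2060 and 800 in post-A20, 4747 and 4543 in pre-A20, 1715 and 1172 in post-βgal, and 3696 and 3290 in pre-βgal livers. After resection the A20 and βgal arrays overlapped fully, the post-A20 pair enclosing the post-βgal pair, and before resection both A20 arrays were higher than both βgal arrays. The resection difference in βgal livers was −1.29 (SE 0.40, limma adjusted p = 0.128), the largest of the 6 members in that comparison and not called. In A20 livers it was −1.84, with −2.51 without post-A20 replicate 1 and −1.17 without post-A20 replicate 2.

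Ces1d, the main triacylglycerol hydrolase of mouse liver, which mobilises stored fat for lipoprotein assembly, was read by 3 probe sets. The probe set with the highest mean, used for the gene, gave 2804 and 1966 in post-A20, 5529 and 5600 in pre-A20, 2151 and 1922 in post-βgal, and 2995 and 5117 in pre-βgal livers. The lower pre-βgal value belonged to replicate 1, the array with the highest β-actin ratio, and the part of RNA integrity in it was not tested. The other probe sets did not show that gap, with 2800 and 2607 on one and 2350 and 2046 on the other in pre-βgal livers. On the first of these, the remaining signals were 1683 and 1010 in post-A20, 3334 and 3585 in pre-A20 and 1655 and 1076 in post-βgal livers, so both resected groups were low and alike. With resection in βgal livers the 3 probe sets gave −0.94, −1.01 and −0.99, with limma adjusted p over all probe sets of 0.135, 0.127 and 0.147. Without pre-βgal replicate 1 the gene's value was −1.32, and it was called (adjusted p over genes = 0.0441), and without pre-βgal replicate 2 it was −0.56 and not called (adjusted p = 0.229). The descriptive log2 fold change in A20 livers was −1.24 on the gene's probe set. After resection, A20 against βgal gave 0.21, −0.03 and −0.02 on the 3 probe sets, with overlapping arrays.

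Ces2a, a mouse relative of the human enzyme CES2 that activates ester prodrugs, had 2157 and 1893 in post-A20, 4973 and 5366 in pre-A20, 3014 and 2339 in post-βgal, and 3965 and 3571 in pre-βgal livers. The 4 groups did not overlap with each other, with A20 livers highest before and lowest after resection. Resection went with −1.35 in A20 livers, as a description, and with −0.50 (SE 0.18, limma adjusted p = 0.162) in βgal livers. Against βgal, A20 livers were lower by a log2 fold change of −0.39 after resection (adjusted p = 0.270) and higher by 0.46 before it (adjusted p = 0.194), neither of which was called.

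Ces2e, another member of the Ces2 group found in liver and intestine, gave 1620 and 1240 in post-A20, 2349 and 2625 in pre-A20, 2224 and 2379 in post-βgal, and 2543 and 2652 in pre-βgal livers. Only the post-A20 arrays stood apart from the rest, and the post-βgal arrays overlapped with the pre-A20 arrays. The resection difference in βgal livers was small, −0.17 (SE 0.18, 95% interval −0.59 to 0.24, limma adjusted p = 0.597), and that in A20 livers was −0.80. Post-A20 was below post-βgal by −0.69 on the log2 scale (SE 0.18, adjusted p = 0.125). The group means of Ces2e spanned a 1.82-fold range, against 8.51-fold for Ces1e. Ces2c, which hydrolyses acylcarnitines and acylglycerols, is named without values.

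The probe set shared by Ces3a and Ces3b, liver esterases of the third group of the family, gave 5989 and 5096 in post-A20, 8887 and 8643 in pre-A20, 5056 and 3833 in post-βgal, and 5787 and 5253 in pre-βgal livers. A20 livers were above βgal livers at both times without overlap, the later pair by a narrow gap. The difference was 0.33 after resection (SE 0.17, limma adjusted p over all probe sets = 0.348), 0.67 before it (SE 0.17, adjusted p = 0.0909), and 0.50 averaged over both (SE 0.12, adjusted p = 0.0650). The resection difference was −0.32 in βgal livers (SE 0.17, adjusted p = 0.326) and −0.66 in A20 livers.

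Set side by side, all 6 members tested had a value below 0 with resection in βgal livers, from −1.29 for Ces1f to −0.17 for Ces2e. Their median was −1.05, against −0.05 over all genes tested, and 5 of the 6 had an unadjusted p under 0.05, as did 3944 of the 17790 genes. By the bound criterion, a lower end of the 90% interval of the fold change of at least 1.5, 1 of the 6 was lower, with 0.742% of all genes. In A20 livers, where the set was chosen, the values ran from −3.06 for Ces1e to −0.80 for Ces2e with a median of −1.34, against 0.02 over all genes. Counts of members past a threshold in that comparison are not used as a result, since the set was chosen on it. They are listed only where the settings are compared.

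**Figure D2:**
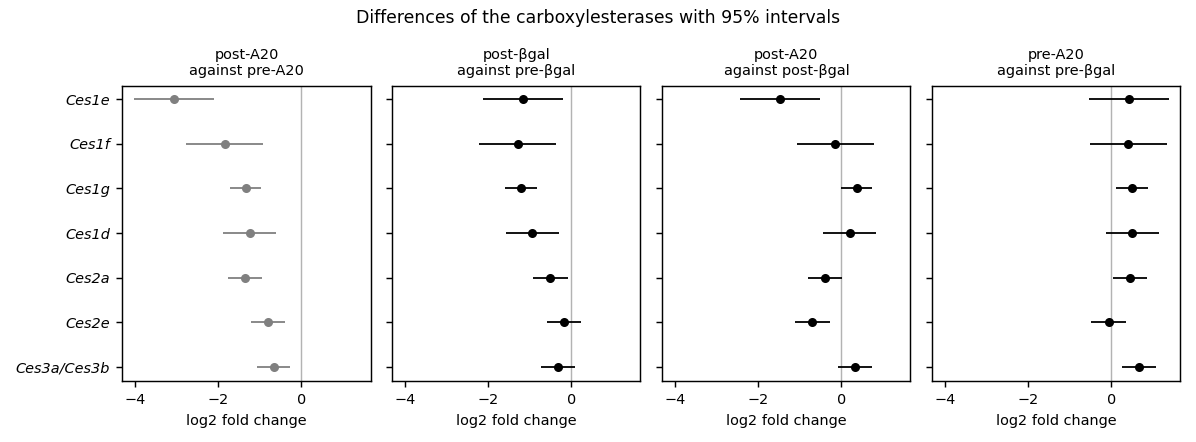
Log2 fold change (horizontal axis) of each carboxylesterase with its 95% interval in 4 comparisons of 2 groups, grey where the set was chosen on the comparison. With resection, Ces1e stands at −3.06 in A20 livers and −1.16 in βgal livers, and Ces1g has the narrowest interval of the Ces1 genes, −1.58 to −0.82 in βgal livers.

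The comparisons of A20 with βgal livers share A20 arrays with the choice of the set. Of the 5 members other than Ces1e, none was called after resection, against 0.332% of all genes. Before resection none of the 5 was called either, against 2.50% of all genes. Among them, Ces2e after resection and Ces1g and Ces2a before it had an unadjusted p under 0.05, as did 3490 and 3887 of the 17790 genes. After resection the members' median was −0.27, against 0.03 over all genes, with 4 below 0 and 2 above (Ces1d and Ces1g). For Ces1e the difference was −1.48 (SE 0.42, 95% interval −2.44 to −0.51), given without a test since its post-A20 arrays were part of the choice, and −0.91 without post-βgal replicate 1. Before resection the median was 0.44, against −0.03, and 5 of 6 were above 0, Ces2e being the exception at −0.06. Ces1e was at 0.43 (SE 0.42) there, and 0.05 without pre-βgal replicate 2. Averaged over both times, a comparison that does not use the difference between the A20 groups, none of 6 was called, against 5.39% of all genes, with Ces1g and Ces2e at an unadjusted p under 0.05, as were 4659 genes. The members' median was 0.08 with 4 above 0 and 2 below (Ces1e at −0.52 and Ces2e at −0.38).

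The difference between the resection responses, A20 minus βgal, was below 0 in all 6 members, with a median of −0.59 against 0.05 over all genes. It was −1.90 for Ces1e (SE 0.59, 95% interval −3.27 to −0.54), with no test since it contains the comparison on which the set was chosen, and it lay between −2.47 and −1.34 when arrays were left out in turn. Ces2a had −0.85 (SE 0.25, limma adjusted p = 0.226), Ces2e −0.63 (adjusted p = 0.299), Ces1f −0.55 (adjusted p = 0.655), Ces1d −0.30 (adjusted p = 0.734) and Ces1g −0.14 (adjusted p = 0.807). No gene was called, 0% of the 17790 tested by limma, while 2788 genes, Ces2a and Ces2e among them, had an unadjusted p under 0.05.

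**Figure D3:**
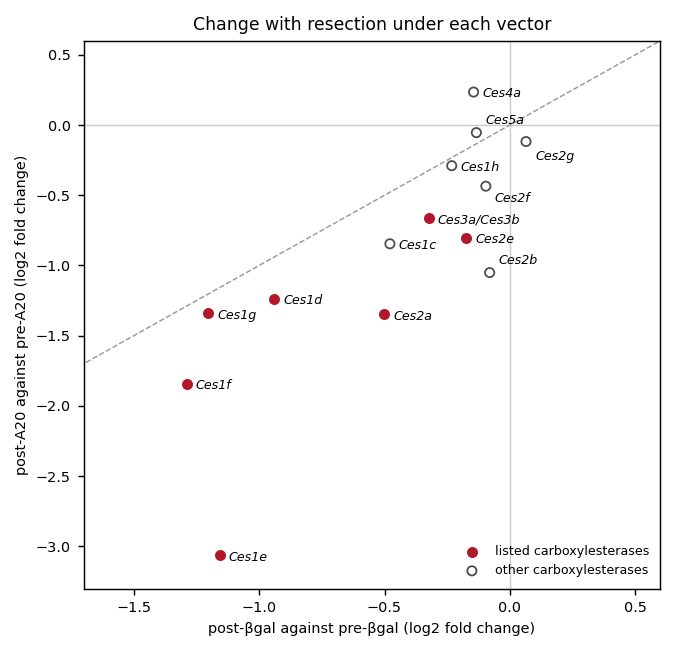
Resection responses as log2 fold changes, in βgal livers (horizontal axis) and in A20 livers (vertical axis), for the listed carboxylesterases (filled) and the other carboxylesterases (open), with a dashed line where both are equal. The 7 filled points lie below the line, Ces1e farthest at −1.16 and −3.06 and Ces1g nearest at −1.20 and −1.34.

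The patterns of the members over the arrays were alike to differing degrees. Over the 8 arrays, with 1 probe set for each gene and the shared one, the 21 pairs of members had Pearson's r from 0.21, for Ces2e with the Ces3a and Ces3b probe set, to 0.96, for Ces1e with Ces2a, with a median of 0.80, as a description of arrays that share groups. The other Ces1d probe sets had a higher r with Ces1f, 0.993 and 0.988. Their r with the Ces1d probe set used for the gene was 0.895 and 0.908. Whether these probe sets read Ces1d and Ces1f apart was not tested. Among all other genes, the patterns most like that of Ces1e over the 8 arrays were those of Gsta2 (r = 0.984), a glutathione transferase, Serpina12 (r = 0.977), the adipokine vaspin, Tmed6 (r = 0.974), a protein of vesicle traffic, Rap2a (r = 0.969), a small GTPase, and Gstp1 (r = 0.955), another glutathione transferase. Gsta2 had 613 and 394 in post-A20, 1694 and 1933 in pre-A20, 1141 and 919 in post-βgal, and 1940 and 1340 in pre-βgal livers. Its post-A20 arrays were the lowest of all, as those of Ces1e were. The span of Gstp1 was narrow, −0.23 on the log2 scale with resection in A20 livers, so a like pattern does not mean a like size.

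Within groups, replicate 1 of post-A20 was above replicate 2 in 7 of 7 probe sets (1 for each gene and the shared one), by a median of 0.38 on the log2 scale, against 0.02 over all genes. In post-βgal livers this was so in 6 of 7 with a median of 0.36, against 0.02, and it was so in 3 of 7 in pre-A20 livers with a median of −0.02 and in 4 of 7 in pre-βgal livers with a median of 0.14. Ces1f had the widest gap in post-A20 at 1.35, and Ces1g the smallest at 0.03. The 2 pools of a resected group thus differed in the same direction for most members, and this spread enters every SE above.

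Of 10 other carboxylesterase genes, Ces1a, Ces1b and Ces2h had no probe set named here, and 0 of the 7 tested were called in any comparison (limma). An unadjusted p under 0.05 was found with resection for 4 of 7 in A20 livers (2743 of the 17790 genes) and 1 of 7 in βgal livers (3944 genes). For A20 against βgal it was found for 0 of 7 after resection (3490 genes) and 3 of 7 before it (3887 genes). Ces1c, a carboxylesterase that the liver secretes into plasma, had 6604 and 4748 in post-A20, 9802 and 10358 in pre-A20, 6879 and 5341 in post-βgal, and 8587 and 8319 in pre-βgal livers. Both resected groups were below both groups before resection, with log2 fold changes of −0.85 in A20 livers and −0.48 in βgal livers (adjusted p = 0.0925 and 0.203). Ces2b gave 79.5 and 75.2 in post-A20, 130 and 241 in pre-A20, 70.6 and 69.8 in post-βgal, and 79.5 and 71.0 in pre-βgal livers. Its pre-A20 arrays were above the other 6, by 1.08 over pre-βgal on the log2 scale (SE 0.22, adjusted p = 0.0515), at a low signal. Ces1h, Ces2f, Ces2g, Ces4a and Ces5a had resection differences between −0.23 and 0.06 in βgal livers. The median of the 7 in that comparison was −0.13, against −1.05 for the listed members. In βgal livers Ces2f lay at 53.3 to 72.1 and Ces2b at 69.8 to 79.5, below the array medians, and Ces1h at 179 to 225. The part of low signal in the gap between these medians was not tested.

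Other esterases and lipases of the liver, 21 of 23 with a probe set named here (Esd and Lipc without), had a median of −0.17 with resection in βgal livers, and 0 of 21 were called by limma, with 12 at an unadjusted p under 0.05, as were 3944 of the 17790 genes. Averaged over both times, 2 were higher in A20 livers, Pon1 and Pnpla8, and 1 was lower, Acot2. Pon1, the paraoxonase carried on high density lipoprotein, had 6089 and 5533 in post-A20 and 7619 and 8960 in pre-A20, against 4197 and 2650 in post-βgal and 5100 and 4915 in pre-βgal livers, a log2 fold change of 0.76 (SE 0.16, adjusted p = 0.0391). Acot2, a mitochondrial thioesterase that frees fatty acids from coenzyme A, was at −0.94 (SE 0.18, adjusted p = 0.0321). Pnpla8, a phospholipase, was at 0.58 (adjusted p = 0.0481) and, before resection alone, at 0.96 (adjusted p = 0.0474). Over all other settings the average of Acot2 ran from −1.12 to −0.15, against −1.12 to −0.76 with only an array left out. That of Pon1 ran from 0.59 to 0.94 and that of Pnpla8 from 0.40 to 0.65 over all other settings. Abhd6, a monoacylglycerol lipase, had the smallest p of the list for the difference between the resection responses, −1.03 (adjusted p = 0.212), and was not called. With 1 array left out at a time, Pon1 and Acot2 were called in 2 of 8 fits each, and Pnpla8 in 1 of 8 for both of its calls. The highest adjusted p was 0.138 for Pon1 and 0.120 for Acot2, both without pre-A20 replicate 2, and for Pnpla8 0.166 without post-βgal replicate 1 and 0.287 without pre-A20 replicate 2.

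Genes of very low density lipoprotein assembly and lipid droplets, together with Gusb, the β-glucuronidase that egasyn retains, made a list of 10, all tested. Gusb had 487 and 602 in post-A20, 416 and 402 in pre-A20, 808 and 766 in post-βgal, and 603 and 447 in pre-βgal livers, higher after resection under both vectors without overlap, at 0.58 in βgal livers (limma adjusted p = 0.133). Its order of groups was thus unlike that of Ces1e, its partner. Cidec, which enlarges lipid droplets, was 1318 and 1165 in post-βgal and 94.5 and 99.4 in pre-βgal livers, a rise of 3.47 on the log2 scale (SE 0.19, adjusted p = 0.000835) that was called in 8 of 8 fits with 1 array left out. Dgat2, which makes triacylglycerol, fell with resection in βgal livers by 0.95 (SE 0.14, adjusted p = 0.0211), a call lost without either post-A20 or either post-βgal array (highest adjusted p = 0.141). Averaged over both times, Apob, the core protein of very low density lipoprotein, was higher in A20 livers by 1.37 (SE 0.21, adjusted p = 0.0202), and not called without either post-A20 or either post-βgal array (highest adjusted p = 0.0878). Tm6sf2, which loads lipid onto those particles, was lower before resection at −1.13 (SE 0.18, adjusted p = 0.0343), called in 1 of 8 fits with an array left out (highest adjusted p = 0.251, without pre-A20 replicate 2). The 10 genes had a median of 0.40 with resection in βgal livers, against −0.05 over all genes, with 1 called higher and 1 lower.

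Nuclear receptors and other factors known to act on liver carboxylesterase and drug metabolism genes made a list of 11, all tested. Nr1i3, the xenobiotic receptor CAR, had 1055 and 1588 in post-A20 and 1428 and 1496 in pre-A20, against 302 and 299 in post-βgal and 512 and 806 in pre-βgal livers. All 4 A20 arrays were above all 4 βgal arrays, by 1.61 averaged over both times (SE 0.18, limma adjusted p = 0.0152) and by 2.05 after resection (adjusted p = 0.0298). The average was not called without post-A20, pre-A20 or post-βgal replicate 2 (highest adjusted p = 0.0619), and the difference after resection was called in 2 of 8 fits (highest adjusted p = 0.185, without post-βgal replicate 1). Ppara, the receptor for fatty acids, was higher in A20 livers by 1.24 on average (SE 0.23, adjusted p = 0.0296), called in 2 of 8 fits with an array left out (on the same probe set the highest adjusted p was 0.111, without post-A20 replicate 2). Where the probe set of highest mean was chosen anew, 3 of these 8 fits took another probe set of the gene, which gave 0.05 without post-A20 replicate 2. With resection in βgal livers, Nr0b2, the repressor SHP, fell by 1.89 (SE 0.37, adjusted p = 0.0480), called in 1 of 8 fits (highest adjusted p = 0.239, without post-βgal replicate 1). Cebpa, a factor of hepatocyte differentiation, had −1.10 (adjusted p = 0.0777). The median of the 11 genes with resection in βgal livers was −0.05, the same as over all genes.

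**Figure D4:**
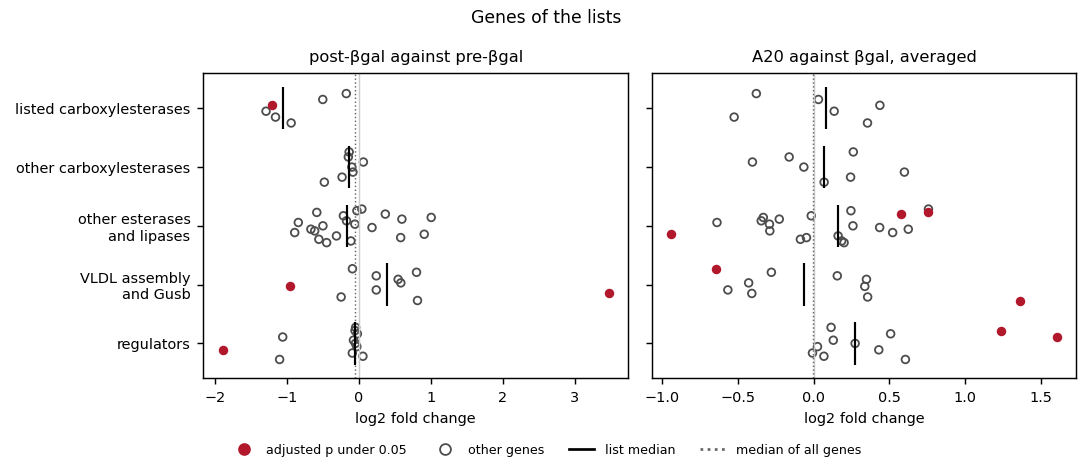
Log2 fold changes (horizontal axis) of the listed carboxylesterases and the 4 other gene lists, on the left for post-βgal against pre-βgal and on the right for A20 against βgal as the average of both times, 1 point a gene, filled where called, with a bar at each list's median. With resection in βgal livers the listed carboxylesterases have a median of −1.05, and the other lists lie between −0.17 and 0.40.

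Markers of some other cells differed between these groups. None of the T and B cell, stellate and biliary markers kept by the filter was called in any comparison (limma). Of 5 sinusoidal endothelial markers, 1 was called with resection under each vector and 1 for A20 against βgal averaged over both times. The summed signal of 4 of 6 neutrophil markers kept by the filter (Ly6g and Retnlg below it, none of the others at 0) was 1614 to 1898 in post-A20, 1227 to 1320 in pre-A20, 4189 to 4855 in post-βgal and 2425 to 3201 in pre-βgal arrays. The sum of 6 of 6 Kupffer cell and macrophage markers, none at 0, was 5118 to 5516 in post-A20, 3375 to 3580 in pre-A20, 4035 to 5070 in post-βgal and 5658 to 6236 in pre-βgal arrays. The members measured had lower mean signals in resected livers than before resection under the same vector, while the neutrophil sum was higher there under both vectors. S100a8 and S100a9 were higher after resection under both vectors, with means of 1736 against 765 and 1938 against 897 in βgal livers. Mmp9 was lower under both, and Cxcr2 was lower in βgal livers (516 against 800) and higher in A20 livers (697 against 583). No neutrophil marker was called with resection under either vector (limma). For A20 against βgal, 2 of the 4 were called before resection, 2 after it and 2 averaged over both times. Of the 6 Kupffer cell and macrophage markers, 1 was called before resection, 0 after it and 1 averaged. The shares of all genes called in these comparisons were 2.50%, 0.332% and 5.39%. The part of these cells in the carboxylesterase differences was not tested.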

How the data were processed

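Liver RNA of 4 groups of 2 arrays, each a pool of 3 mice, was compared. The authors deposited 1 table of normalized signal intensity per probe set on a linear scale. Their methods describe dChip (invariant set normalization, perfect-match probes only), whereas MAS5 is the tool in the sample records, and the sources used here do not settle which one produced these values. Background handling and scaling therefore stay as the authors set them, and only their effect on scale was tried below.

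Members and lists were chosen with earlier results of these data known. Probe sets were named from the platform annotation (34945 with 1 symbol, 932 with several, 9160 with none), with symbols updated through RefSeq. The value 16 was added to each deposited intensity and the log2 taken. The 42703 probe sets with a group mean of at least 40 in at least 1 group entered 1 model with a mean per group in R 4.3.3 with limma 3.58.1 (4 residual and 3.73 prior degrees of freedom, variance trend). A gene's value came from its probe set of highest mean, and p-values (2-sided) were adjusted by Benjamini-Hochberg over 17790 genes, or over all probe sets for single probe sets. The resection comparison in A20 livers was used in choosing the set and carries no p for members. Named were all members, the other carboxylesterases, up to 4 genes of each other list with the smallest p, and the 5 genes with the highest Pearson's r to Ces1e. One item of a list is not reported here. The number of arrays limits the precision. The model was tested on simulated data. There were 25 other settings: offsets, filters, scalings, variance models, probe set rules, replicate blocks, an RNA integrity covariate, the bound criterion, fits of fewer arrays and each array left out. A crossed block, a variance model with 1 row per gene and leaving out arrays with a gene's probe set kept were added after the data were seen. Start regions and motifs were read with Python 3.11.15.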

Additional observations from a re-analysis of the deposited data

Results flagged for a closer look

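For Ces1e and Ces2a the A20 difference changed sign with resection. Both post-A20 arrays lay below both post-βgal arrays, and both pre-A20 arrays above both pre-βgal arrays. The share of all genes with this order of arrays is not given, so the order is a description only. For Ces1e the difference after minus before resection was −1.90 on the log2 scale. It was not tested, because it contains the comparison on which the set was chosen. For Ces2a it was −0.85 and did not pass the test (limma adjusted p = 0.226, 0.0665 to 0.550 over the other settings). No gene of the 17790 passed that test, with 2788 at an unadjusted p under 0.05. The β-actin 3′ to 5′ ratio was high in post-βgal replicate 1 and pre-βgal replicate 1. Without these arrays the difference was −1.72 for Ces1e and −0.74 for Ces2a.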

How the results depend on the processing

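Of 148 counts of members under other settings 124 equalled the reported count or lay within 1.5 times of it. With resection in βgal livers, 1 of 6 members was called, against 3 with the RNA integrity covariate (Ces1d, Ces1e and Ces1g), 3 with the replicate block within each vector (Ces1e, Ces1f and Ces1g), 0 with only the arrays compared, and 0 to 2 with 1 array left out. After resection, A20 against βgal gave 0 among the members other than Ces1e under every setting. Ces1e is left out of this count, since its post-A20 arrays were part of the choice of the set. Averaged over both times the count was 0, but 1 without the variance trend, 1 with the integrity covariate, 2 with the block within each vector, 1 with the crossed block and 0 to 1 with an array left out. The difference between resection responses also gave 0 among the members other than Ces1e under every setting, with Ces1e left out for the same reason. The descriptive count in A20 livers was 3, but 5 with the block within each vector, 6 with the integrity covariate, 5 by the bound criterion and 0 to 4 with an array left out. The set was chosen on that comparison in A20 livers, so its count shows the effect of the settings only and is not a test of the set. Over all genes, 0.382% were lower there by adjusted p and 0.720% by the bound criterion. The cause of the shifts in all these counts was not tested.

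Of 976 member values under other settings, 14 changed sign, all in differences that were not called. Without both βgal replicate 1 arrays the difference between resection responses was 0.17 for Ces1d and 0.025 for Ces1g, and post-A20 against post-βgal was 0.13 for Ces1f. With 1 array left out, post-A20 against post-βgal ran from −0.048 to 0.46 for Ces1d and from −0.81 to 0.53 for Ces1f, and the difference between responses from −0.68 to 0.086 for Ces1d, −1.23 to 0.12 for Ces1f and −0.28 to 0.010 for Ces1g. The A20 average ran from −0.20 to 0.47 for Ces1f and from −0.059 to 0.12 for Ces2a, and pre-A20 against pre-βgal from −0.14 to 0.015 for Ces2e. The probe set of Ces3a and Ces3b was called for the A20 average with each of the 3 replicate blocks and with the integrity covariate, and before resection with the block within each vector and that covariate.

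The replicate numbers do not pair the pools by the labels. Deviations of equally numbered arrays correlated at 0.675 between post-βgal and pre-βgal, 0.21 between post-A20 and pre-βgal, 0.13 between post-A20 and post-βgal, −0.04 between post-A20 and pre-A20, −0.16 between pre-A20 and post-βgal and −0.19 between pre-A20 and pre-βgal. Replicate 1 of both βgal groups also had the high β-actin ratios, so pairing and RNA integrity cannot be told apart in the value of 0.675. The replicate block, shared by all groups (1 member called with resection in βgal livers) or within each vector, and the crossed pairing are therefore alternatives only. With 2 pools a group, differences near the gap between pools cannot be resolved.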
